A study of Mus musculus with 8 samples.

Results

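The long piRNA clusters are 88 of the 180 genomic loci that the deposited pellet table lists under numbered piRNA cluster names. They were taken by listed locus length, end minus start: a cluster was included when its length reached the median of all 180, which was 3579.5 bp. Of the 90 clusters at or above that length, 2 were left out, and 3 further clusters were left out of the shorter ones, so 87 short clusters served as the comparison. All 88 were found in each of the 5 tables, on 18 chromosomes. The median did not mark a gap in the data: clusters 145, 173 and 82 entered with 3586, 3600 and 3676 bp, and clusters 136, 89 and 73 stayed out with 3573, 3528 and 3490 bp. In the pellet table the lysate values of these 6 were 1427, 483 and 249 FPKM inside the limit and 1150, 891 and 193 FPKM outside it.

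Small RNA of 19 to 33 nt was sequenced from adult C57BL/6 mice at least 6 weeks old, in 8 libraries. The labels describe testis lysate, the supernatant and 2 successive pellets of chromatoid body purification, immunoprecipitates (IP) with antibodies to MVH (2 libraries) and to the acrosomal protease acrosin (ACR, the control), and sorted round spermatids labelled hetMIWI, with nothing further on that genotype. Dissociated tubule cells were cross-linked with formaldehyde, sonicated and spun, and both IPs started from the second pellet. Values are FPKM, fragment counts scaled to the length of the feature and the size of the library. The pellet column is tied to both pellet libraries without saying which it holds, and the MVH IP column stands for both of its libraries, so every group has 1 column and no difference below has a replicate check. The tables were normalized separately, and any level set across tables carries that limit.

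piRNAs are small RNAs, somewhat longer than microRNAs, that are loaded onto PIWI proteins and that silence transposons and cleave messenger RNA in germ cells. Most piRNAs of the adult mouse testis are cut from long single-stranded precursors transcribed from a limited set of loci in pachytene spermatocytes, under the transcription factor A-MYB (Mybl1). They persist in round spermatids, where PIWIL1 (MIWI) and the helicase MVH (Ddx4) accumulate in the chromatoid body, a cytoplasmic granule beside the nucleus.

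The listed locus was not always the length over which reads had been counted. The authors' deposited test statistics, the FPKM values and the step between read numbers together imply a read number and a counted length for each cluster. For 65 of the 88 long clusters the implied length lay within 10% of the listed one. For the other 23 the listed locus was longer, and for 22 of these it was shared with another long cluster or with a named gene of the tables. The listed lengths ran from 3586 to 410502 bp with a median of 9540.5 bp, and the implied lengths from 1068 to 40338 bp with a median of 6760.0 bp. Cluster 128 (chromosome 11, 107794701 to 108205202 in mm9) was listed at 410502 bp against an implied 3025 bp. RefSeq gives exactly that listed length for Prkca, a protein kinase C gene on the same chromosome. Clusters 134, 47 and 169 were next in listed length, at 143947, 87964 and 85104 bp against an implied 12170, 5850 and 5210 bp, and clusters 100, 102 and 103 shared a locus of 69602 bp. Cluster 16 (chromosome 3, 124103059 to 124128946) was listed at 25888 bp against an implied 1068 bp, and shared its locus with the gene 1700006A11Rik. By implied length, 6 long clusters fell under the 3579.5 bp limit: 16, 33, 99 and 128 far below it, and 145 and 173 within the error of the estimate. The implied lengths taken from the supernatant and pellet tables differed by a median of 0.294% and at most 14.9%, the latter for cluster 169.

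**Figure D1:**
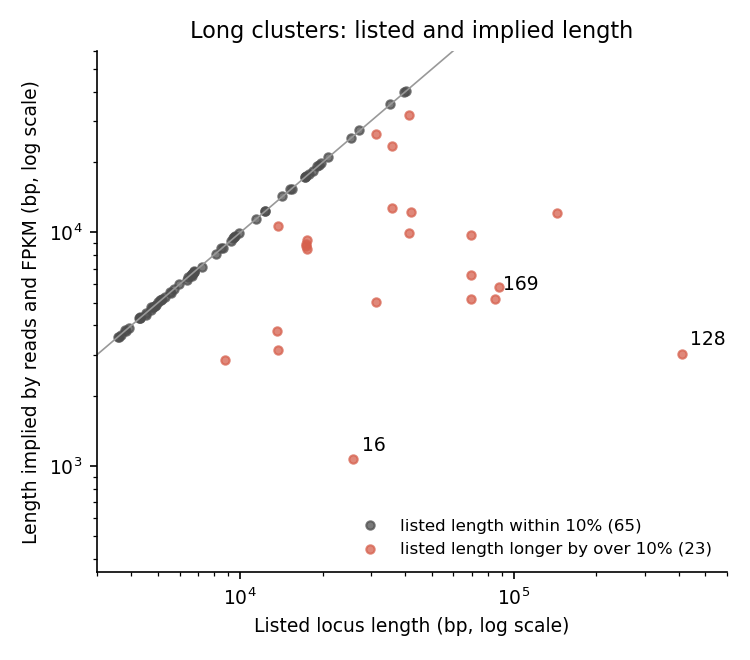
Listed locus length (bp, log scale) against the length implied by reads and FPKM (bp, log scale) for the 88 long clusters. Grey points (65) lie on the line of equal length, and red points (23) lie below it, with cluster 128 farthest at 410502 bp listed and 3025 bp implied.

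The tables placed 9 named genes at the listed loci of 11 long clusters. Stox1 shared the locus of clusters 100, 102 and 103, Kcnk10 that of cluster 134, and Eif2c2, which encodes the Argonaute protein AGO2, that of cluster 169. The genes 1700006A11Rik, 1700001L05Rik, 1700016M24Rik, D130017N08Rik and Gm10069 shared the loci of clusters 16, 171, 165, 33 and 47, and Mir468 that of cluster 48. The files give no strand, so where a cluster and a gene or another cluster occupy one locus the division of reads between them is uncertain. At the locus of cluster 33 (chromosome 5, 144519223 to 144527980) the lysate value in the pellet table was 470 FPKM for the cluster and 2767 FPKM for D130017N08Rik. At the locus of cluster 16 it was 238 FPKM for the cluster and 2258 FPKM for 1700006A11Rik. Both genes were thus listed far above the cluster beside them. Every other gene with a lysate value there was listed below its cluster. Stox1 had 485 FPKM against 669, 726 and 1078 FPKM for clusters 100, 102 and 103. Kcnk10 had 123 against 766 FPKM and Eif2c2 had 97.0 against 250 FPKM. For 1700001L05Rik it was 401 against 1586 FPKM, and for Gm10069 35.7 against 657 FPKM.

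RefSeq promoters, 250 bases before to 50 after the gene start, were at hand for 4 of the 9 genes and are given in GRCm38.p6 coordinates. The 2 that held a MYB-type motif are shown, because these genes share loci with long clusters and A-MYB is the known activator of pachytene piRNA precursors. Capitals mark matches, on either strand, to the MYB core TAACGG, to the variant written TAACTG, to the variant written CAACGG or to the variant written CAACTG. The first is chr5:143758104-143758403, plus strand, and the second chr15:83367248-83367547, minus strand.
D130017N08Rik: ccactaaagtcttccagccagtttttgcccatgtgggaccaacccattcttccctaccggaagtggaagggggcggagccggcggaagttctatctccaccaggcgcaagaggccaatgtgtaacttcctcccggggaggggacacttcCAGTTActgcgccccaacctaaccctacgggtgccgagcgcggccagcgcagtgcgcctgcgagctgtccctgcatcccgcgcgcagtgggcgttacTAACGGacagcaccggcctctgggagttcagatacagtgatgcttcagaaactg
1700001L05Rik: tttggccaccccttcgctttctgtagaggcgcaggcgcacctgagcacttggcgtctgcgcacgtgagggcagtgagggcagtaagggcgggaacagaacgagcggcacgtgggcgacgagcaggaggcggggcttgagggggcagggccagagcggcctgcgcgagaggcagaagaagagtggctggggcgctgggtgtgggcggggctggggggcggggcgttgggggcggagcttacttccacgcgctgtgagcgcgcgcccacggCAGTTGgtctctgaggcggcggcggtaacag
D130017N08Rik held 2 matches and 1700001L05Rik held 1. At least 1 match was present in 28.3% of the 32851 RefSeq promoters of this length, so a match alone sets no promoter apart. No promoter sequence of the clusters themselves was used.

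One microRNA gene was listed at a long cluster. Mir468 appeared in the MVH IP table alone, at 883321 FPKM, with the locus of cluster 48 (chromosome 6, 81843886 to 81850528). Its mature RefSeq sequence is shown with the seed, bases 2 to 8, in capitals, since its length is what sets it apart.
mmu-miR-468-5p: gACUGAUGuacugauaagaaacucagu
The sequence has 27 bases, against a median of 22 for the 1679 mature mouse microRNAs in the RefSeq table, of which 3 are as long or longer. Cluster 48 itself was at 1315 FPKM in the MVH IP column, 2508 FPKM in the lysate and 1619 FPKM in round spermatids. FPKM divides by feature length, so the level of a gene with a 78-base hairpin cannot be read against that of a cluster as an amount of RNA.

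The long clusters carried nearly all piRNA cluster reads. By FPKM times implied length they held 91.1% of the cluster signal of the lysate, the 87 short clusters 5.97% and the 5 left-out clusters 2.90%. The same share was 91.0% in the supernatant, 87.4% in the pellet, 87.6% in the MVH IP and 91.7% in round spermatids. In the ACR IP it was 56.8%, with 39.7% in the 5 left-out clusters. Against the short clusters alone the long ones held between 93.6% (MVH IP) and 94.2% (round spermatids) of the signal in the fraction, IP and cell columns. They held 93.9% in the lysate of the supernatant and pellet tables and 94.3% in that of the ACR IP table. By listed length the shares were 94.4% in the lysate, 92.2% in the MVH IP and 94.2% in round spermatids. Those listed-length shares rest on the merged loci, since cluster 128 alone took 23.9% of the lysate signal by listed length and 0.320% by implied length. Clusters 165, 68, 134, 196, 45, 9, 77, 103 and 161 followed by listed length, with 2.05 to 4.28% each. Length chose the clusters, so a high share is in part fixed by the choice. Their level per length was also higher: the lysate median was 1532 FPKM for the long and 442 FPKM for the short clusters.

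The implied reads of the lysate library summed to 5898956 over the long clusters, with a median of 34572 and a range of 738 to 357735 per cluster. Cluster 196 (chromosome 18, 35304 bp) was the largest source with 6.06% of the long clusters' lysate signal, followed by cluster 9 with 5.13% and cluster 96 with 4.28%. The 10 largest sources together held 41.3% in the lysate, 40.4% in the pellet, 41.6% in the MVH IP and 40.1% in round spermatids. The same 10 clusters thus made up a near-equal part of each column.

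Per kilobase the order was different. Cluster 107 (chromosome 10, 75314591 to 75321813) had the highest lysate level, 4442 FPKM, and the highest MVH IP level, 2345 FPKM. Clusters 187 and 175, neighbours on chromosome 17, followed in both columns with 4355 and 3881 FPKM in the lysate and 2237 and 1917 FPKM in the MVH IP. Clusters 165, 68, 98, 38, 196, 28 and 174 completed the 10 highest of the lysate, at 2736 to 3591 FPKM. At the other end clusters 15 and 122 had 140 and 142 FPKM in the lysate, 68.7 and 75.3 FPKM in the MVH IP, and 63.9 and 95.2 FPKM in round spermatids. The long clusters therefore spanned more than an order of magnitude per kilobase in each of these columns, and none was listed at 0 outside the ACR IP.

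The first comparison set the supernatant, the material left in solution, against the lysate. The long clusters stayed close to the lysate: the supernatant value was between 90 and 110% of the lysate value for 72 of 88, below 90% for 14 and above 110% for 2. The median log2 ratio of (FPKM + 1) was -0.08, against -0.03 for the short clusters and 0.02 for the 4999 features that reached 1 FPKM in the supernatant or the lysate. Of the 88 long clusters, 72 had a log2 ratio below 0, against 47.0% of all features, and 53 of the 87 short clusters did. None was at least 2-fold lower, against 5.42% of all features. In the authors' deposited table, 46 long and 12 short clusters were called lower, as were 1.59% of all features. By the q-values of the authors' deposited table (limit 0.05), 66 long clusters were lower, against 4.83% of features, and 5 were higher, against 3.77%. Of the 87 short clusters, 25 were lower and 11 higher by the same limit. No source used here states the rule behind the calls. Every long cluster called in the supernatant had a listed q-value of 0. No long cluster with a q-value above 0 was called, including cluster 70 at 1.7e-14. Calls follow read number as well as ratio, and long clusters have more reads than short ones.

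Cluster 107, the highest per kilobase, was also the most reduced, at 1432 FPKM in the supernatant and 1858 FPKM in the lysate column of that table. Its log2 ratio was -0.38, and the SE implied by the authors' test statistics for the long clusters ranged from 0.00315 to 0.0647 with a median of 0.0102. Cluster 13 had 739 and 943 FPKM (log2 ratio -0.35) and cluster 113 had 344 and 438 FPKM (log2 ratio -0.35). Clusters 82, 156 and 173 followed at log2 ratios of -0.31, -0.30 and -0.27. These SEs cover counting error within the 2 libraries, and the spread of the long clusters around their median (SD 0.112) was about an order of magnitude wider than the median SE.

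In the other direction cluster 118 (chromosome 10, 86032808 to 86037534) had 346 FPKM in the supernatant and 308 FPKM in the lysate, a log2 ratio of 0.17. It was the only long cluster called higher in the authors' deposited table, where 0.942% of all features were. Cluster 16 had the highest ratio, with 137 and 99.5 FPKM (log2 ratio 0.46). The authors' deposited table gives it a q-value of 4.4e-11 and no call. Its value is among those divided with a gene at the same locus, and 1700006A11Rik had 897 FPKM in the supernatant and 945 FPKM in the lysate, on the opposite side of the lysate. Clusters 102, 95, 47 and 76 followed at log2 ratios between 0.03 and 0.07.

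The second comparison set the pellet, from which chromatoid bodies are recovered, against the lysate. Every long cluster was lower in the pellet column. The median log2 ratio was -2.47, against -2.43 for the short clusters, and all features of the table had shifted too, with a median of -2.20. All 88 were at least 2-fold lower, as were all 87 short clusters and 86.5% of all 3005 features. All 88 long clusters and all 87 short clusters were called lower in the authors' deposited table, where 18.7% of all features were. Relative to the median feature the long clusters lay 0.27 lower on the log2 scale, and on that scale none was 2-fold lower. The pellet value was 18.1% of the lysate value at the median, with a range of 12.4 to 25.1%.

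The clusters differed among themselves by more than the counting error. The SD of their log2 ratios was 0.179, and the implied SE had a median of 0.0204 and a maximum of 0.127. Cluster 174 had the lowest pellet ratio, with 339 FPKM against 2736 in the lysate (log2 ratio -3.01). Cluster 186 had 189 against 1511 FPKM (log2 ratio -2.99), cluster 175 had 531 against 3881 FPKM (log2 ratio -2.87) and cluster 187 had 645 against 4355 FPKM (log2 ratio -2.75). These 4 are successive long clusters on chromosome 17, from 27430632 to 27497109, and were grouped after their values were seen. Short cluster 188 lies between 187 and 174, and short clusters 185 and 176 lie at the ends. These short clusters stood lower still in the pellet, at 11.8, 10.2 and 11.7% of the lysate, so the low ratio was not particular to the long clusters there. Of the 84 other long clusters only cluster 162, at 14.0% of the lysate, was at or below the highest of the 4, cluster 187 at 14.80%. Cluster 55, on chromosome 6, stood at 14.82%, and with its implied SE of 0.0331 on the log2 scale it cannot be told apart from cluster 187. In other columns the 4 stood at 93.9 to 96.8% of the lysate (supernatant), 43.5 to 51.4% (MVH IP) and 48.4 to 63.5% (round spermatids), where the medians of the long clusters were 94.6, 49.8 and 68.3%. Cluster 55 was next in the pellet at a log2 ratio of -2.75.

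The highest pellet ratio belonged to cluster 16, at 59.7 against 238 FPKM (log2 ratio -1.98). Clusters 197, 82, 173, 5 and 145 followed between -2.13 and -2.20, with lysate levels of 810, 249, 483, 334 and 1427 FPKM. Clusters 82, 173 and 145 are the 3 that entered just above the length limit. Across the 65 long clusters with their own listed length, the pellet ratio and the length had a Spearman rho of -0.41, given as a description since all points share the same libraries. The 18 clusters under 5 kb had a median of 19.9% of the lysate, the 27 between 5 and 10 kb 18.0%, and the 20 longer ones 17.5%. Without those under 5 kb the rho was -0.15 over 47 clusters, so the relation rests on them. Longer clusters also had higher lysate levels (rho 0.45), and the pellet ratio had a rho of -0.38 with the lysate level. The part of each was not tested.

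**Figure D2:**
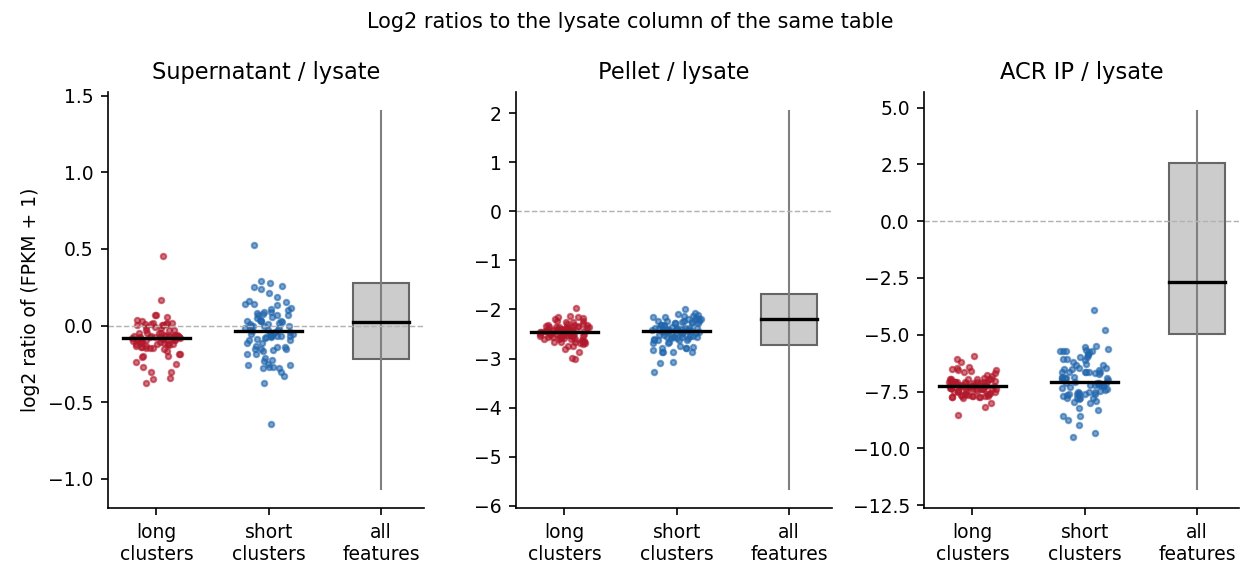
Log2 ratio of (FPKM + 1) to the lysate column of the same table for supernatant, pellet and ACR IP, with a separate vertical scale in each panel. Points are the 88 long (red) and 87 short (blue) clusters with black lines at the medians, and the box, line and whisker of all features give the quartiles, the median and the range from the 5th to the 95th percentile. The long clusters sit at medians of -0.08, -2.47 and -7.27, close to the short ones in each panel.

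Many long clusters are neighbours. With listed gaps of at most 20 kb, 50 of the 88 fell into 17 stretches of 2 or more and 38 stood alone, and the 17 stretches held 72.8% of the long clusters' lysate signal. The smallest gaps between separate loci were 83 bp (clusters 186 and 187), 284 bp (80 and 81), 319 bp (40 and 41), 394 bp (8 and 9), 402 bp (97 and 98), 432 bp (76 and the locus of 68 and 77) and 463 bp (98 and the locus of 91 and 99). Pairs separated by so little are the arrangement known for divergent piRNA clusters, in which both strands are transcribed outward from one start region, but the files give no strand and no start. The chromosome 17 stretch alone held 10.5% of the long clusters' lysate signal. A stretch of 6 clusters on chromosome 9, from 67540381 to 67605947, held 7.69%, and clusters 8 and 9 on chromosome 2, from 92380637 to 92438556, held 6.99%.

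In the pellet, clusters 146 and 147 on chromosome 14 stood at 15.7% of the lysate each, clusters 8 and 9 at 17.2 and 17.7%, and the 4 clusters of the chromosome 12 stretch between 17.4 and 18.1%. Other stretches were wider, such as clusters 70, 61, 74, 62 and 64 on chromosome 7 at 16.3 to 21.0%. In round spermatids clusters 146 and 147 stood at 56.3 and 52.8% of the lysate and clusters 8 and 9 at 76.9 and 85.4%, while the chromosome 12 stretch ran from 63.3 to 94.9% and the chromosome 9 stretch from 50.2 to 180.7%. All 88 clusters spread more widely in round spermatids than in the pellet, and whether neighbours lie nearer to each other than other clusters do was not tested.

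**Figure D3:**
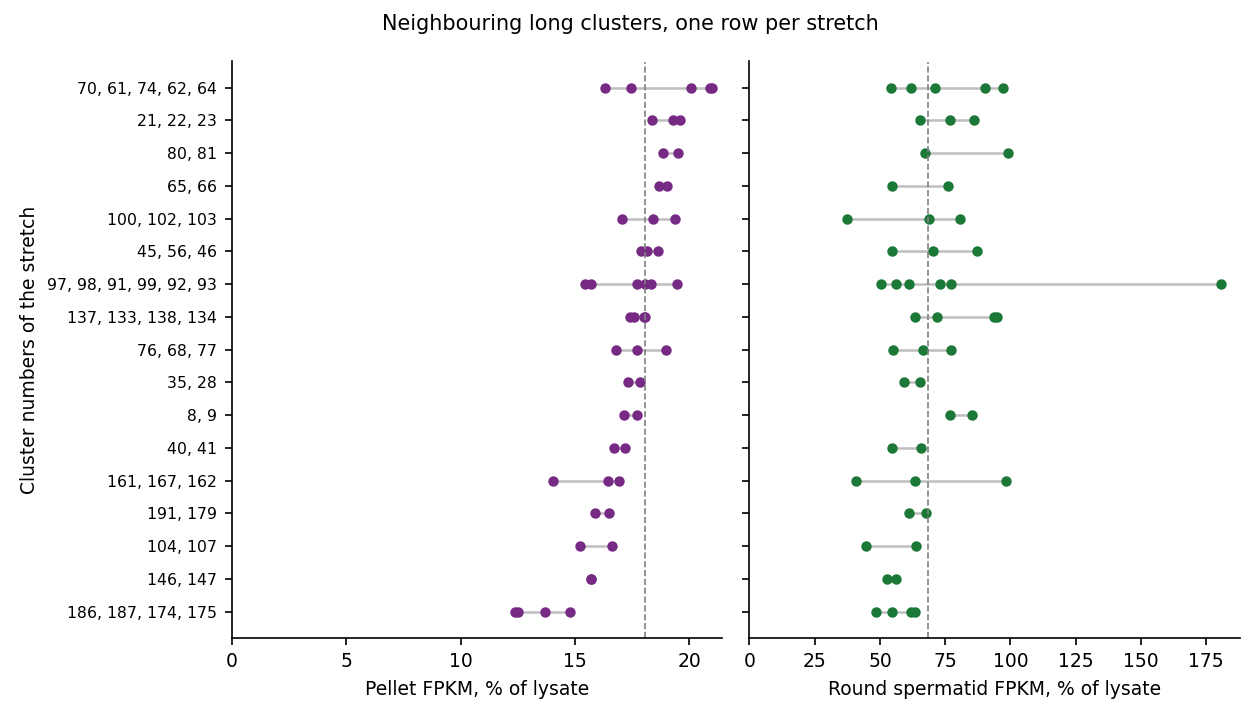
Pellet FPKM (left) and round spermatid FPKM (right) as a percentage of the lysate FPKM of the pellet table, for the 50 long clusters in 17 stretches, 1 row per stretch and 1 point per cluster, ordered by pellet median. Dashed lines mark the medians of all 88, 18.1% and 68.3%. The chromosome 17 stretch (clusters 186, 187, 174 and 175) is lowest in the pellet, and cluster 91 stands alone at 180.7% in round spermatids.

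The MVH IP asks which small RNAs come down with the chromatoid body helicase. It has no matched column in its table, so it was set beside the lysate of the pellet table, and only the order of clusters can be read. The MVH IP value was 49.8% of the lysate value at the median of the long clusters and 50.2% at that of the short ones. It lay between 40 and 60% for 80 of the 88. The other 8 were clusters 16 (73.1%), 197 (67.8%), 80 (67.0%), 82 (66.9%), 145 (63.9%), 24 (61.1%), 100 (60.4%) and 156 (60.1%). Clusters 74, 191, 162 and 55 were lowest, all at or under 40.9%. After the median was removed, the SD on the log2 scale was 0.164 for the MVH IP, 0.178 for the pellet and 0.112 for the supernatant. The 10 highest by FPKM in the MVH IP were clusters 107, 187, 175, 165, 68, 38, 196, 98, 28 and 45, and 9 of these were among the 10 highest of the lysate.

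**Figure D4:**
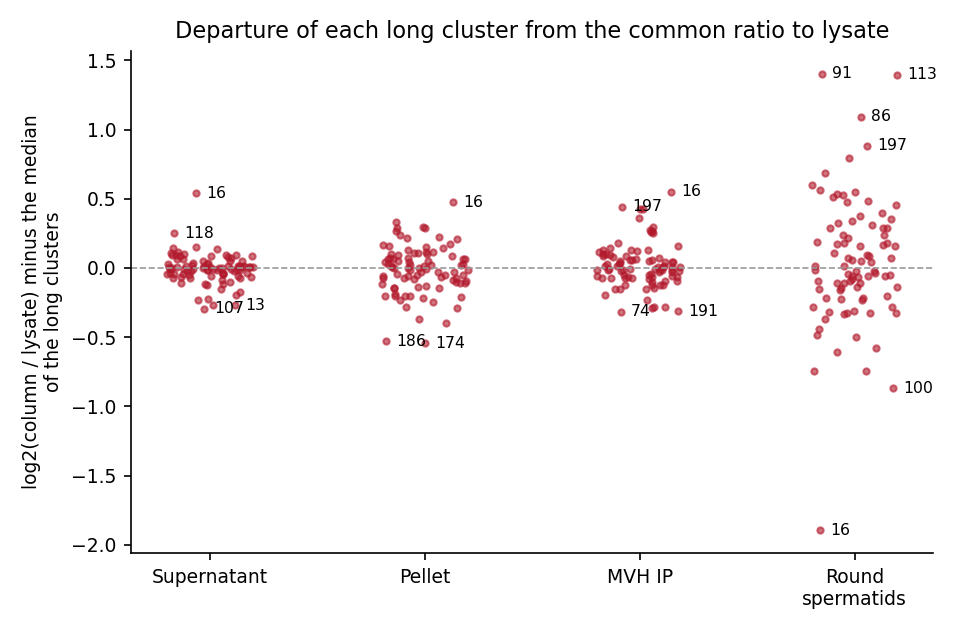
Log2 ratio of each column to the lysate minus the median of the 88 long clusters, 1 point per cluster, with cluster numbers at the extremes. The supernatant is set against the lysate of its own table and the other columns against that of the pellet table; the SDs are 0.112, 0.178, 0.164 and 0.466 from left to right. Cluster 16 is highest in the first 3 columns and lowest in round spermatids.

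Sorted round spermatids are the cells that contain the chromatoid body, while the lysate also holds spermatocytes and other tubule cells. The round spermatid library is also the only one labelled hetMIWI. Cell type and that genotype therefore cannot be told apart in any difference from the lysate. In these bulk libraries a smaller number of cells of one type and less RNA per cell cannot be told apart. Round spermatids departed most from the lysate order, with an SD of 0.466 on the log2 scale. The round spermatid value was 68.3% of the lysate value at the median of the long clusters, 56.3% at that of the short ones, and ranged from 18.4 to 180.7% over the long clusters. It lay between 50 and 100% for 72 clusters, above 100% for 8 and below 50% for 8. Round spermatids have no lysate column beside them, so that of the pellet table was used. For the long clusters its values are 2.39 times those of the lysate in the supernatant table. The percentages and the 50 and 100% limits therefore depend on the column chosen, and only the order of clusters can be read. The clusters named from here to the end of the account of round spermatids were picked after their values were seen, where they are not among the highest by FPKM.

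Cluster 91 (chromosome 9, 67578035 to 67591728) had the highest level of all long clusters in round spermatids, 4485 FPKM. In the lysate of the pellet table it had 2483 FPKM, in the pellet 449 FPKM, in the MVH IP 1244 FPKM, in the supernatant 988 FPKM (1039 FPKM in the lysate beside it) and in the ACR IP 11.2 FPKM. Its MVH IP value was 50.1% of the lysate value, close to the median. Its neighbours 97, 98, 92 and 93 stood at 77.3, 61.3, 72.9 and 56.0% of the lysate in round spermatids, and cluster 99, which shares its locus, at 50.2%. The cluster thus stood apart from its own stretch in round spermatids and in no other column. Cluster 113 (chromosome 10, 18516447 to 18522815) reached 1879 FPKM in round spermatids against 1046 FPKM in the lysate, or 179.6%, and was at 51.9% in the MVH IP. Cluster 86 (chromosome 8, 95938345 to 95946851) had 939 against 645 FPKM, or 145.5%. Clusters 197, 82, 157, 171 and 141 were also above the lysate value of the pellet table, at 125.8, 118.4, 109.7, 103.4 and 100.7%.

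Cluster 16 was lowest, at 43.7 FPKM in round spermatids against 238 FPKM in the lysate, while 1700006A11Rik at the same locus had 1145 against 2258 FPKM. Cluster 100 had 250 against 669 FPKM (37.4%). Clusters 102 and 103, which share its locus on chromosome 10, had 500 against 726 FPKM and 868 against 1078 FPKM. Clusters 162 and 33 stood at 40.8% each, and cluster 104 at 44.8%. Clusters 16, 33, 100 and 171 share their listed locus with a gene, and cluster 91 shares its with cluster 99, so the division of reads is uncertain for all 5. Clusters 113, 86, 197, 162 and 104 have loci of their own. Among the 10 highest in round spermatids, clusters 91, 117, 62, 161 and 137 were not among the 10 highest of the lysate. Clusters 107, 187, 165, 38 and 68 were in both.

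**Figure D5:**
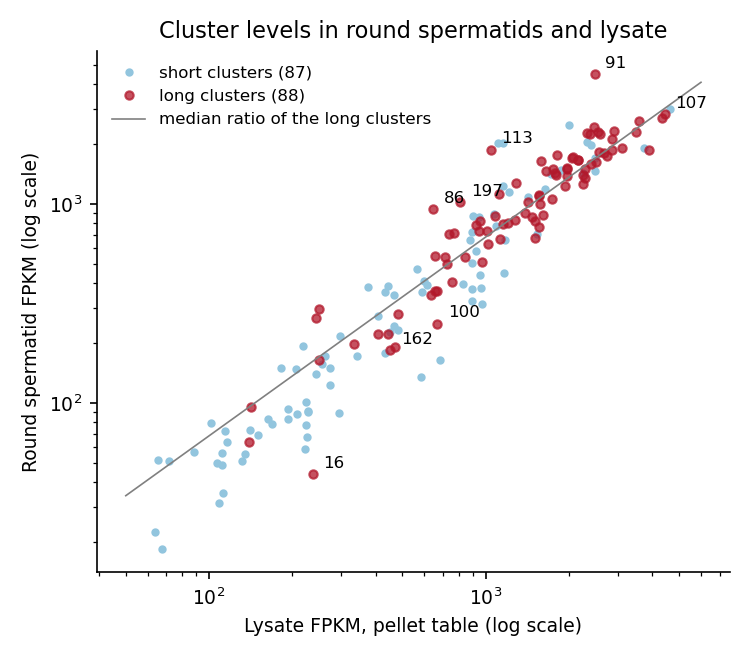
Round spermatid FPKM against lysate FPKM of the pellet table, both on log scales, for the 88 long (red) and 87 short (blue) clusters, with a line at the median ratio of the long clusters. Cluster 91 lies highest at 4485 FPKM, clusters 113 and 86 lie above the line and clusters 16 and 100 below it.

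The ACR IP served as the control precipitate and held few reads of the long clusters. From the values of the low clusters, 1 read was worth 2493 FPKM times bp: 63 of 66 clusters with up to 8 reads lay within 0.15 of a whole read, 34 of them with an odd and 29 with an even number. The unit was chosen to bring these same clusters close to whole reads, so their closeness is no separate check on it. At this unit 1 ACR IP read equals 10.2 lysate reads. The long clusters had 3361 ACR IP reads in all, with a median of 20 and a maximum of 208 per cluster. The median log2 ratio to the lysate was -7.27, against -7.08 for the short clusters and -2.70 for all 2539 features. All 88 were at least 2-fold lower, as were all 87 short clusters and 59.0% of all features. Their ACR IP values summed to 0.581% of their lysate signal.

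At this depth few clusters can be ranked. The intervals given are exact Poisson intervals at 95% that cover counting error only. Cluster 196 had 208 reads, or 0.590% of the lysate value (0.514 to 0.677). Of the 82 clusters with reads, 4 had an interval above the pooled 0.581% and 3 below it, and intervals at this level miss in 5% of cases by counting error alone. Those above were cluster 8 with 108 reads and 1.01% (0.836 to 1.23), cluster 133 with 46 reads and 1.0% (0.735 to 1.34), cluster 170 with 60 reads and 0.780% and cluster 64 with 23 reads and 1.33% (0.838 to 1.98). Those below were cluster 137 with 69 reads and 0.439% (0.341 to 0.555), cluster 107 with 39 reads and 0.366% (0.259 to 0.499) and cluster 197 with 2 reads and 0.131% (0.0161 to 0.480). Cluster 33 had the highest percentage, 1.39%, but on 6 reads (0.521 to 3.09). By log2 ratio clusters 33, 64, 99, 95, 102 and 40 were highest, from -5.93 to -6.50. Clusters 197, 5, 107, 117, 82 and 161 were lowest, from -8.52 to -7.74. Of these, clusters 5 and 82 had 0 reads, so their places come from the pseudocount. With up to 3 reads allowed for a count of 0, their log2 ratios are only known to be at or below -7.312 and -6.625. Clusters 5, 15, 16, 82, 122 and 157 were listed at 0. For these 6 no interval is given; by the floor used here a count of 0 in this library allows up to 3 reads. Cluster 5 was then at least 159-fold lower than the lysate, cluster 157 at least 104-fold, cluster 82 at least 98.7-fold, cluster 122 at least 83.8-fold, cluster 15 at least 80.6-fold and cluster 16 at least 24.2-fold. With these 6 at their bounds the median log2 ratio was -7.24.

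The lysate values themselves were not always the same in the ACR IP table. Between the pellet and supernatant tables the lysate values of all 88 kept a ratio of 2.39. Between the ACR IP and supernatant tables the ratio had a median of 2.08 and lay between 1.99 and 2.16 for 79 clusters. For the other 9 it was lower, from 1.18 to 1.96: clusters 28, 38, 92, 109, 118, 145, 157, 173 and 179. The ACR IP ratios of these 9 are therefore less certain, and the cause was not tested.

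The piRNA pathway's own genes were read from a list of 28, which includes the PIWI proteins, the Tudor proteins that bind them and the nuclease and transcription factors of the pathway. In libraries of 19 to 33 nt these values come from short fragments of their messenger RNA. Of 16 genes measured against the supernatant, none was 2-fold higher or lower. Of all features there, 5.42% were at least 2-fold lower, and 358 of 4999 were at least 2-fold higher. In the pellet comparison, 11 were measured and all 11 were at least 2-fold lower; their median log2 ratio was -1.95, on levels so low that the pseudocount compresses it. Of all features there, 86.5% were as far below the lysate and the median was -2.20. Piwil1 (MIWI) had 2.01 FPKM in the pellet and 14.0 in the lysate, and Ddx25, an RNA helicase of the chromatoid body, had 4.93 and 31.9 FPKM. The ACR IP table measured 7, of which 6 were at least 2-fold lower, against 59.0% of all features. In the MVH IP, 17 of 22 listed genes were above 0, with 7.61 FPKM for Piwil1, 12.6 for Ddx25 and 0 for Ddx4 itself. The share of all features above 0 in that column was not taken. Round spermatids listed 1, Ddx25 at 11.5 FPKM. No pathway gene approached the lowest long cluster of the lysate, at 140 FPKM.

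The contents of the libraries were checked against 29 markers of testis cell types. In the pellet, 17 of 18 measured were at least 2-fold lower, against 86.5% of all features. The other was at least 2-fold higher, as were 263 of 3005 features. The ACR IP also measured 18, with 14 at least 2-fold lower, against 59.0% of all features. Kit, Spaca3 and Hsd3b1 were at least 2-fold higher there, as were 925 of 2539 features. In the supernatant, 1 of 25 was at least 2-fold lower and 1 higher, against 271 and 358 of 4999 features. The germ cell microRNA Mir34c was at 9444380 FPKM in the lysate of the pellet table and 175682 FPKM in round spermatids. Round spermatids listed 10 of the 29, all above 0. They included Mir202 of Sertoli cells (8128 FPKM, lysate 531875), Mir126 of vessels (1621 FPKM, lysate 180221) and Mir451 of red blood cells (1016 FPKM, lysate 919334), and also Mir143 (40906 FPKM, lysate 577894) and Mir145 (17039 FPKM, lysate 89301) of smooth muscle. Kit, a spermatogonial marker, was the only 1 of the 10 above the lysate of the pellet table, at 25 against 5.27 FPKM. The level of Kit also exceeded the lysate in the pellet (18.2 against 5.27 FPKM) and the ACR IP (54.6 against 1.65 FPKM). In the supernatant it was lower (0.479 against 2.20 FPKM), and the MVH IP held 444 FPKM. The lysate value of Kit was lower in the ACR IP table than in the supernatant table. Lysate values of the long clusters were a median 2.08 times as high there, so the ACR IP ratio of Kit is less certain. A high Kit value was thus not particular to round spermatids, whose values come from a separately normalized table. The protamine gene Prm1, a late spermatid marker, was at 26.8 FPKM in round spermatids and 398 FPKM in the lysate. The part of other cell types in the differences between round spermatids and lysate was not tested.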

How the data were processed

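Per the submitters' processing notes, the authors used TopHat and Cuffdiff with the mm9 build, with no versions or roles. No source used here states the annotation, or how reads matching several places were treated. The deposited tables hold FPKM, and the supernatant and pellet tables also the authors' p-value, q-value, call and test statistic (a score), per the file headers. The long RNA column of the MVH IP table, 1 column, was not used. Listed starts count from 0 and are printed plus 1: end minus start equalled the RefSeq hairpin length for 167 of 305 microRNA genes, and start-inclusive counting would fit 2.

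Log2 ratios were taken within a table with a pseudocount of 1 FPKM, for features reaching 1 FPKM in the fraction or the lysate; this scale understates changes of low features. Implied reads came from the log ratio, the test statistic and the supernatant read step of 0.667 (a ratio shared by 108 features); length was then fitted as reads over FPKM with an offset of 194 bp. Depth of the MVH IP and round spermatid columns is unknown. Python 3.11.15, numpy, pandas, scipy and matplotlib were used.

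The members, the gene lists and the rules for naming were chosen with earlier results of these data known. Named were the 10 highest by lysate FPKM, by lysate FPKM times listed length, in the MVH IP and in round spermatids, the 6 longest, the 6 highest and lowest ratios of each fraction, those at 0, those called against the majority, those at the length limit and the nearest neighbours. Alternatives covered the pseudocount, the filter, centring, the length limit, the left-out clusters, members at 0 and the weight of the shares.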

Additional observations from a re-analysis of the deposited data

How the results depend on the processing

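Of 61 alternative values, 41 stayed near the reported one: a median within its 95% binomial interval over the clusters, or a count within 1.5 times. No median changed sign. Centring on the median of all features gave medians of -0.10 for the supernatant, -0.27 for the pellet and -4.57 for the ACR IP, and left 0 of 88 clusters 2-fold lower in the pellet. A pseudocount of 10 FPKM gave -2.41 for the pellet and -6.19 for the ACR IP, and one of 0.1 FPKM gave -7.44 for the ACR IP. A length limit that keeps the longest 59 clusters left 46 clusters below the lysate in the supernatant, from fewer clusters. For the shares of cluster signal no limit was set, so every alternative share was entered as not near, whatever its size. They were set against the shares by listed length. For the MVH IP the FPKM sum gave 49.7%, the total without the left-out clusters 96.3%, the longest 59 clusters 87.5% and, chosen after seeing the data, the implied length 87.6%. For round spermatids these were 64.3, 96.7, 89.2 and 91.7%, and for the lysate 61.2, 96.4, 89.5 and 91.1%. Restricting to the 65 clusters with their own length, also chosen after seeing the data, kept each median and count near its value. No paired analysis was possible because each group has 1 column of values. Leaving out an MVH IP library was not possible for the same reason. Depth limits the ACR IP, with a median of 20 reads per cluster; that of the MVH IP and round spermatid columns is unknown.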

Other observations

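Every group has 1 column, the pellet column is not tied to one of the 2 pellets, and the MVH IP and round spermatid columns come from separately normalized tables, so the differences between clusters describe these libraries. For 23 of the 88 long clusters the listed locus is wider than the counted one, and their values may be divided with a gene or a cluster at the same place. No mm9 genome was used, so no cluster sequence was read.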
